A study of Schizosaccharomyces pombe with 6 samples.

Results

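The mRNAs of 8 heat-shock protein and chaperone genes of fission yeast, *hsp9*, *hsp16*, *hsp104*, *hsp90*, *ssa1*, *ssa2*, *sks2* and *bip1*, were followed through RNA pull-downs made with probes against the long non-coding RNA *aal1*. They were chosen by name from 7001 genes in the count table, through their systematic identifiers and not through their counts, although earlier results of these data were known. Molecular chaperones keep other proteins from aggregating and help them fold: small heat-shock proteins hold unfolded chains, Hsp70 proteins bind and release exposed stretches of a chain, Hsp90 finishes the folding of selected clients, and Hsp104 pulls chains out of aggregates together with Hsp70. In yeasts, many of their genes are switched on by heat and other stress through the heat-shock factor Hsf1, which binds repeats of a short unit in their promoters. Several of these genes are also induced as yeast cells enter stationary phase, the state sampled here.

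The comparison covers 3 strains, each with 2 biological replicates from separate cultures, on Day 6 after entry into stationary phase in the minimal medium EMMG. *aal1-pOE* cells carried an additional, ectopic *aal1* on a plasmid, driven by *P41nmt1*, a promoter that thiamine switches off. Wild-type cells were of strain 972h-. *aal1∆* cells lacked *aal1*, removed with CRISPR-Cas9 in the 972h- background, and served as the control for RNA that binds the beads or probes without *aal1*. No empty-vector library was analysed here, and the label of *aal1-pOE* alone adds *leu1-32* to the 972h- background, so plasmid, background and *aal1* cannot be told apart in *aal1-pOE*. Likewise, without a library of input RNA, recovery in the pull-down and level in the cell cannot be told apart either.

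Libraries held 91917 and 82299 counts in *aal1-pOE*, 89491 and 86614 in wild-type cells, and 175263 and 40653 in *aal1∆*. Counts of *aal1* itself followed the labels, with 9540 and 20832 in *aal1-pOE*, 28 and 147 in wild-type cells and 0 in both *aal1∆* libraries, where a count of 0 allows up to 17.1 and 73.8 CPM (counts per 1000000 counts of a library). *aal1* thus made up 10.4% and 25.3% of the *aal1-pOE* libraries, which lowers the CPM of every other RNA there. Fold changes therefore come from counts scaled by TMM (trimmed mean of M-values), and CPM values refer to the whole library. Only CPM given after TMM scaling refer to the counts of the RNAs tested, so they are not on the scale of the other CPM. rRNA ranged between 25.7% and 54.4% of counts over the 6 libraries. With *aal1*, SPNCRNA.401 (its antisense RNA), rRNA and mitochondrial genes taken out before scaling, 0 of the 8 chaperone mRNAs passed the test in each comparison.

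The promoters of the chaperone genes were searched for the heat-shock units that Hsf1 reads, because shared elements are the feature that textbooks use to group these genes. A pair of head-to-head or tail-to-tail units was spelled GAANNTTC or TTCNNGAA, where N is any base, and both strands of the 250 bases before each annotated transcript start were searched. At least 1 pair was found before 5 of the 8 genes, *hsp16*, *hsp90*, *ssa1*, *ssa2* and *bip1*, and in 852 of 5112 promoters of nuclear mRNAs (16.7%). A run of 3 units, in which both kinds of pair share a unit, was found before 2 of them, *ssa1* and *ssa2*, and in 21 of 5112 promoters (0.411%). The stretches of 80 bases that hold these pairs are printed to show how alike the elements are, 5′ to 3′ on the strand of the gene, from RefSeq's assembly ASM294v3, with the bases of the units in capitals.
hsp16: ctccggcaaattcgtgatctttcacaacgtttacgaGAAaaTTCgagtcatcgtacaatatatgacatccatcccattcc
hsp90: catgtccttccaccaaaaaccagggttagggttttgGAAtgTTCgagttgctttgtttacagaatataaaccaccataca
ssa1: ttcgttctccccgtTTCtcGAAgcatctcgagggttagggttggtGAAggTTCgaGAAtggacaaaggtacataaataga
ssa2: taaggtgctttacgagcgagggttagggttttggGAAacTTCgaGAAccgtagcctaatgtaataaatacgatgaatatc
bip1: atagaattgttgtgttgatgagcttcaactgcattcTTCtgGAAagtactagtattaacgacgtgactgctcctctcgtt

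These stretches lie at chrII:2661042-2661121 (*hsp16*, minus strand), chrI:3891153-3891232 (*hsp90*, minus), chrI:2297988-2298067 (*ssa1*, minus), chrIII:2056950-2057029 (*ssa2*, plus) and chrI:1185518-1185597 (*bip1*, minus). In *hsp90*, *ssa1* and *ssa2* the pair GAANNTTC began 57, 58 and 59 bases before the start. The same 3 promoters carried the word GGGTTAGGG just before it, beginning 71, 72 and 74 bases before the start. This word was chosen after the sequences were seen, and 24 of 5112 promoters (0.469%) hold it on either strand. The core of the site of the stress factor Atf1, TGACGT, was found in 1 of the 8 promoters, that of *ssa2*, and in 282 of 5112 (5.52%). No pair of units and no TGACGT was found in the windows of *hsp9*, *hsp104* and *sks2*.

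**Figure D1:**
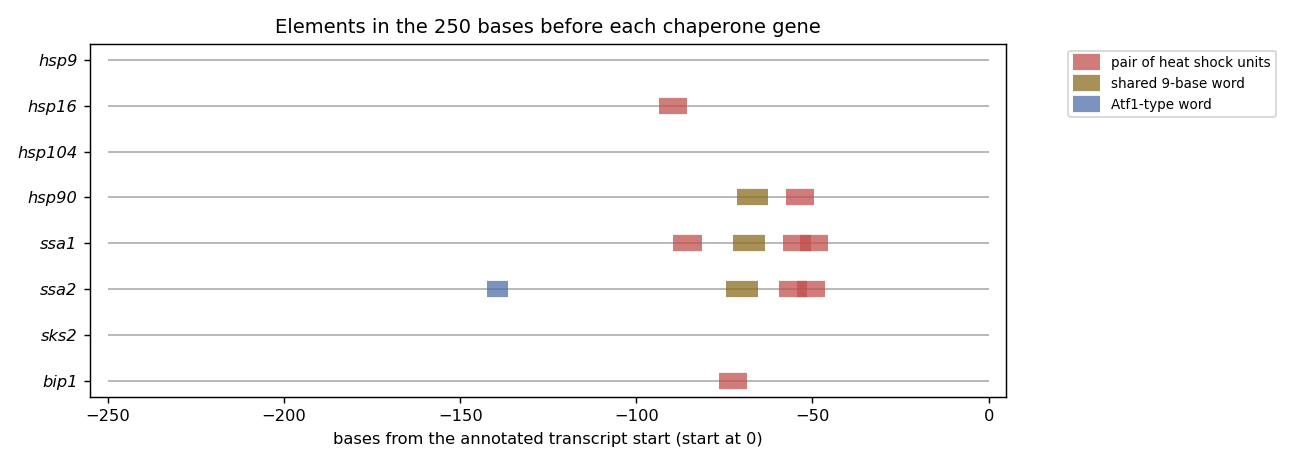
Elements in the 250 bases before each chaperone gene. The horizontal axis gives bases from the annotated transcript start, each line is 1 gene, and coloured blocks mark pairs of heat-shock units, the shared 9-base word and the Atf1-type word. The word and the pair sit side by side in *hsp90*, *ssa1* and *ssa2*, and the windows of *hsp9*, *hsp104* and *sks2* hold none of the 3 elements.

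All 8 genes have 1 exon, as do 51.7% of 5113 nuclear mRNAs. Their mRNAs had a median length of 2337 nt against 1680 nt for all nuclear mRNAs, and a median GC content of 41.1% against 37.2%. The cytosolic Hsp70 genes *ssa1* and *ssa2* are close copies, with 606 of 644 aligned residues (94.1%) and 82.9% of aligned coding bases the same, so their reads could be mixed up. No stretch of 67 nt, the length of a read once its molecular index is clipped, and none of 59 nt, occurred in any of the 8 mRNAs and again elsewhere in the genome. At 50 nt, *ssa1* and *ssa2* shared 7 stretches, all within the identical coding run of 56 nt printed here to mark where shorter alignments could not be placed, at chrI:2296375-2296430 in *ssa1* and chrIII:2058566-2058621 in *ssa2*.
ssa1 and ssa2: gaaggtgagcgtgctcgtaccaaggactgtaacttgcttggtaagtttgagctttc

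All 8 mRNAs were recovered in all 6 libraries, including both libraries without *aal1*, with between 22 and 547 counts each. By counts they ranked between 12 and 470 among 5111 nuclear mRNAs. Levels of different genes were compared as CPM per kb of transcript, over 6 libraries. *hsp9* came first with 2003 ± 284 CPM per kb (SD, n = 6), followed by *hsp16* with 1632 ± 326, *ssa2* with 1131 ± 218, *ssa1* with 832 ± 110, *sks2* with 698 ± 207, *hsp90* with 580 ± 148, *bip1* with 224 ± 67.6 and *hsp104* with 198 ± 78.6. In every library *ssa2* lay above *ssa1*, and *hsp90* lay above *bip1*. The other neighbours changed places in at least 1 library: *hsp9* was above *hsp16*, *hsp16* above *ssa2* and *ssa1* above *sks2* in 5 of 6, and *sks2* above *hsp90* and *bip1* above *hsp104* in 4 of 6.

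*hsp9* (SPAP8A3.04c, chrI:5319957-5320676, minus strand) encodes a small stress protein of 68 residues, related to Hsp12 of budding yeast, which sits at membranes. Its level was 1480 and 1312 CPM in *aal1-pOE*, 1687 and 1374 CPM in wild type and 1153 and 1648 CPM in *aal1∆*. The 3 strains overlapped, and the lowest and the highest *aal1∆* library enclosed the *aal1-pOE* libraries. Fitted log2 fold changes were 0.17 (SE 0.39) for wild type and 0.19 (SE 0.39) for *aal1-pOE*, each against *aal1∆*. The lncRNA SPNCRNA.1071 overlaps 64 nt of *hsp9* on the same strand and had at most 4 counts in a library.

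*hsp16* (SPBC3E7.02c, chrII:2660139-2660992, minus strand) encodes the small heat-shock protein that binds unfolded chains before Hsp70 and Hsp104 take them over. It had 1839 and 1094 CPM in *aal1-pOE*, 1486 and 1478 CPM in wild type and 1358 and 1107 CPM in *aal1∆*. Both wild-type libraries were above both *aal1∆* libraries on this scale but not after TMM scaling, while the *aal1-pOE* replicates differed 1.68-fold and spanned the other strains. The fitted log2 fold changes against *aal1∆* were 0.37 (SE 0.39) in *aal1-pOE* and 0.29 (SE 0.39) in wild type, and with 1 library left out at a time they ran between 0.13 and 0.72 in *aal1-pOE* and between -0.091 and 0.66 in wild type. The 95% intervals with all libraries ran between 0.748- and 2.22-fold in *aal1-pOE* and between 0.710- and 2.11-fold in wild type.

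*hsp104* (SPBC16D10.08c, chrII:3612265-3615269, minus strand), the disaggregase, gave low counts, as did *bip1*. *hsp104* had 22 and 43 in *aal1-pOE*, 71 and 38 in wild-type cells and 124 and 35 in *aal1∆*. *bip1* had 48 and 45, 59 and 39, and 104 and 40 in the same order of strains. The *hsp104* counts correspond to 239 and 522 CPM in *aal1-pOE*, 793 and 439 CPM in wild type and 708 and 861 CPM in *aal1∆*. Both *aal1-pOE* libraries lay below both *aal1∆* libraries, and wild type overlapped with *aal1-pOE*. With *aal1* and SPNCRNA.401 left out of the library totals, a scale chosen after the data were seen, *aal1-pOE* replicate 2 had 709.3 CPM and *aal1∆* replicate 1 had 707.5 CPM, so the strains then overlapped. The fitted log2 fold change of *aal1-pOE* against *aal1∆* was -0.81 (SE 0.48), the largest in size of all 24 values, and its 95% interval ran between 0.292- and 1.11-fold (edgeR, adjusted p = 0.9997). It was -0.23 without *aal1-pOE* replicate 1 and -1.63 without *aal1-pOE* replicate 2. The log2 fold change was -0.37 (SE 0.47) in wild type against *aal1∆* and -0.44 (SE 0.48) in *aal1-pOE* against wild type.

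*hsp90* (SPAC926.04c, chrI:3888558-3891139, minus strand) encodes the chaperone that matures kinases and other signalling clients. Its level was 1382 and 1507 CPM in *aal1-pOE*, 1944 and 912 CPM in wild type and 1894 and 1353 CPM in *aal1∆*. The wild-type replicates differed 2.13-fold and enclosed all other libraries. Against *aal1∆* the fitted log2 fold change was -0.02 (SE 0.39) in *aal1-pOE* and -0.28 (SE 0.39) in wild type.

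The 4 Hsp70 genes differ in where their proteins act. *ssa1* (SPAC13G7.02c, chrI:2295580-2297964, minus strand) and *ssa2* (SPCC1739.13, chrIII:2057043-2059331, plus strand) encode the Hsp70 proteins of the cytosol. *ssa1* had 1958 and 1713 CPM in *aal1-pOE*, 2347 and 1859 CPM in wild type and 2259 and 1771 CPM in *aal1∆*. *ssa2* had 2383 and 2442 CPM in *aal1-pOE*, 2324 and 1986 CPM in wild type and 3121 and 3272 CPM in *aal1∆*. The *ssa1* ranges of the 3 strains overlapped, whereas both *aal1∆* libraries of *ssa2* were above the 4 libraries that carry *aal1* by CPM. After TMM scaling *ssa2* had 2529 and 3234 CPM in *aal1-pOE*, 1969 and 2671 in wild-type cells and 3483 and 3252 in *aal1∆*, so that replicate 2 of *aal1-pOE* and of *aal1∆* were nearly level. With *aal1* and SPNCRNA.401 left out of the totals the order broke, with 2679 and 3316 CPM in *aal1-pOE* against 3121 and 3272 CPM in *aal1∆*. For *ssa2* the fitted log2 fold change was -0.54 (SE 0.39) in wild type and -0.23 (SE 0.38) in *aal1-pOE*, each against *aal1∆*, and neither passed the test (edgeR, adjusted p = 0.9993 and 0.9997). For *ssa1* it was 0.05 (SE 0.38) and 0.01 (SE 0.38) in the same comparisons. The ratio of *ssa2* to *ssa1* counts was 1.22 and 1.43 in *aal1-pOE*, 0.990 and 1.07 in wild-type cells and 1.38 and 1.85 in *aal1∆*. Counted as 1 gene, the pair had log2 fold changes of -0.28 (SE 0.40) in wild type and -0.13 (SE 0.40) in *aal1-pOE* against *aal1∆*. The coding gene *ppe1* overlaps 27 nt of *ssa2* on the same strand and had at most 33 counts in a library.

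*sks2* (SPBC1709.05, chrII:1106396-1108511, plus strand) encodes the Hsp70 that sits on ribosomes and receives new chains, as Ssb does in budding yeast. It had 1512 and 996 CPM in *aal1-pOE*, 1866 and 1155 CPM in wild type and 1221 and 2115 CPM in *aal1∆*. The 3 strains overlapped, with replicates 1.52-, 1.62- and 1.73-fold apart in *aal1-pOE*, wild type and *aal1∆*, and the fitted log2 fold changes against *aal1∆* were -0.23 (SE 0.39) in *aal1-pOE* and -0.13 (SE 0.39) in wild type. *bip1* (SPAC22A12.15c, chrI:1182693-1185485, minus strand) encodes the Hsp70 of the endoplasmic reticulum. It had 522 and 547 CPM in *aal1-pOE*, 659 and 450 CPM in wild type and 593 and 984 CPM in *aal1∆*. Replicate 2 of *aal1∆*, the smallest library, had the highest *bip1* and *sks2* levels and, with *ssa2* and *hsp104*, the highest level of 4 of the 8 mRNAs. The fitted log2 fold change of *bip1* was -0.34 (SE 0.46) in *aal1-pOE* and -0.47 (SE 0.46) in wild type, against *aal1∆*.

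**Figure D2:**
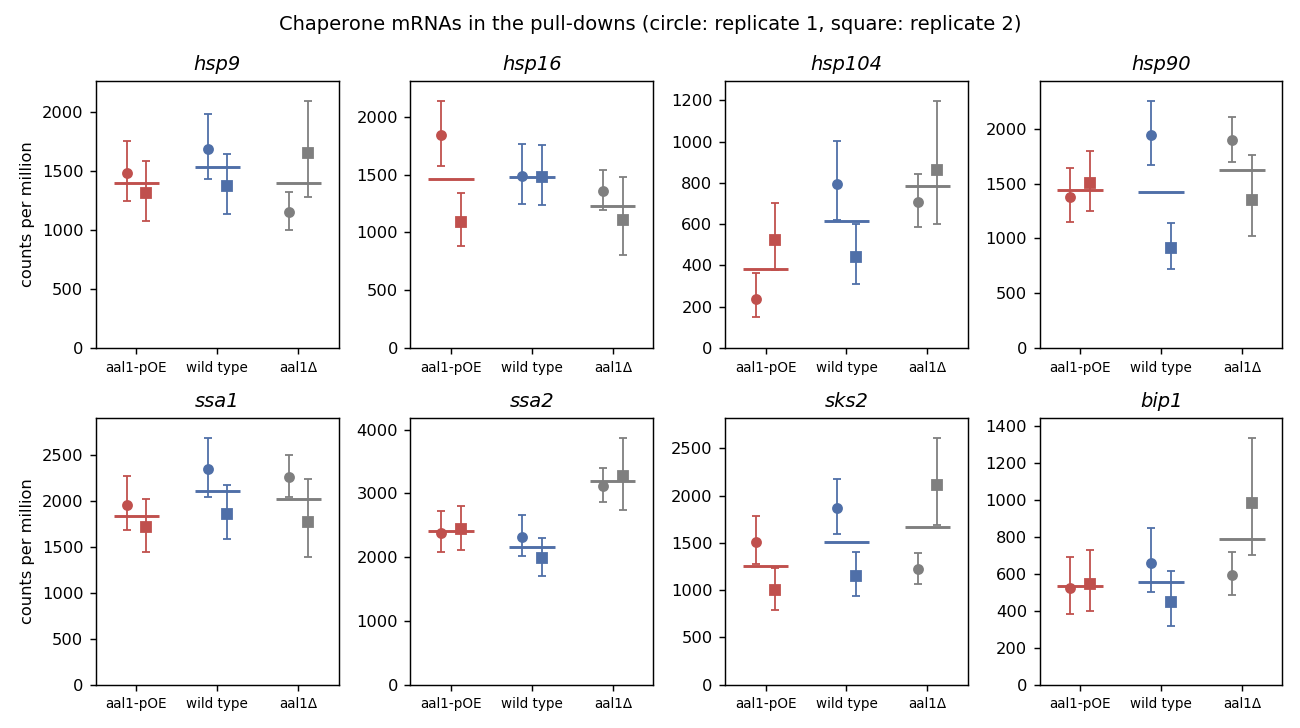
Level of each chaperone mRNA in the 6 libraries, in CPM. Circles are replicate 1 and squares replicate 2, thin bars are exact Poisson 95% intervals that cover counting error only, and horizontal lines are strain means. By CPM the *ssa2* libraries of *aal1∆* lie above those of both other strains, and the *hsp104* libraries of *aal1-pOE* lie below those of *aal1∆*; neither order between *aal1-pOE* and *aal1∆* holds with *aal1* and SPNCRNA.401 left out of the totals.

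None of the 8 mRNAs passed the test in any comparison. The first comparison, wild type against *aal1∆*, asks which RNAs are recovered with native *aal1*. Of the 8 mRNAs, 0 were higher and 0 lower at an adjusted p under 0.05 (edgeR quasi-likelihood test, 0 also at an unadjusted p under 0.05, 0 by DESeq2), where 2 of 1329 RNAs were called (0.15%). With plasmid-borne *aal1*, in *aal1-pOE* against *aal1∆*, 0 were higher and 0 lower (edgeR, 0 at an unadjusted p under 0.05, 0 by DESeq2), and 5 of 1329 RNAs were called (0.376%). In *aal1-pOE* against wild type, 0 were higher and 0 lower (edgeR, 0 at an unadjusted p under 0.05, 0 by DESeq2), and 3 of 1329 RNAs were called (0.226%). The last comparison's log2 fold changes lay between -0.44 (*hsp104*) and 0.31 (*ssa2*). The called RNAs were *aal1* and SPRRNA.44 in the first comparison, *aal1*, SPNCRNA.401, SPRRNA.42, SPMIT.10 and *pdc202* in the second and *aal1*, SPNCRNA.401 and SPRRNA.42 in the last, which leaves 0, 1 and 0 of 1292 nuclear mRNAs tested. Of the 1329 RNAs, 15 were higher and 18 lower at an unadjusted p under 0.05 in the first comparison (edgeR). These numbers were 30 and 42 in the second comparison and 23 and 33 in the last. Read against these shares and numbers, a count of 0 among 8 mRNAs is at the background. With 2 libraries per strain, the exact two-sided permutation test on the CPM of 1 gene cannot give a p below 0.333, and its 24 p-values lay between 0.333 and 1.

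The 95% intervals of all 24 fold changes included no change, and none reached beyond 2.11-fold higher or 0.384-fold in wild type against *aal1∆*, 2.22-fold higher or 0.292-fold in *aal1-pOE* against *aal1∆*, or 2.12-fold higher or 0.379-fold in *aal1-pOE* against wild type. The median log2 fold change of the 8 was -0.20, -0.12 and 0.05 in these comparisons, beside 0.00, 0.01 and 0.03 for all RNAs tested. Their median size without the sign was 0.28, 0.23 and 0.11, beside 0.47, 0.53 and 0.54 for all RNAs, and their median standard error was 0.39 in each comparison, beside 0.88 for all RNAs. The comparisons share libraries, so their values are not independent of one another.

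**Figure D3:**
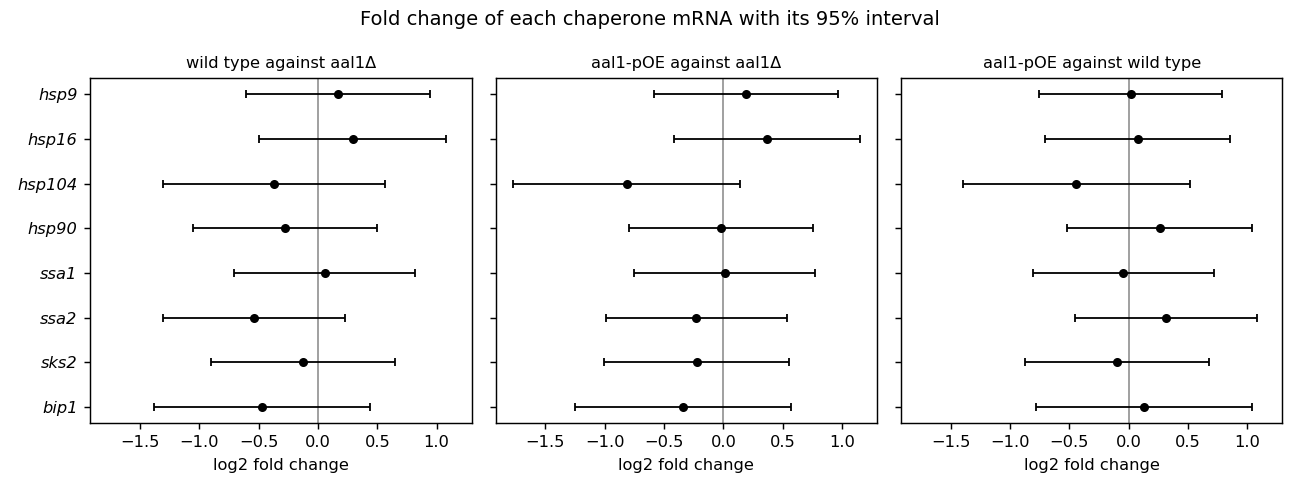
Fitted log2 fold change of each chaperone mRNA (point) with its 95% interval (bar) in the 3 comparisons, edgeR. Positive values are higher in the strain named first, and every interval crosses 0.

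**Figure D4:**
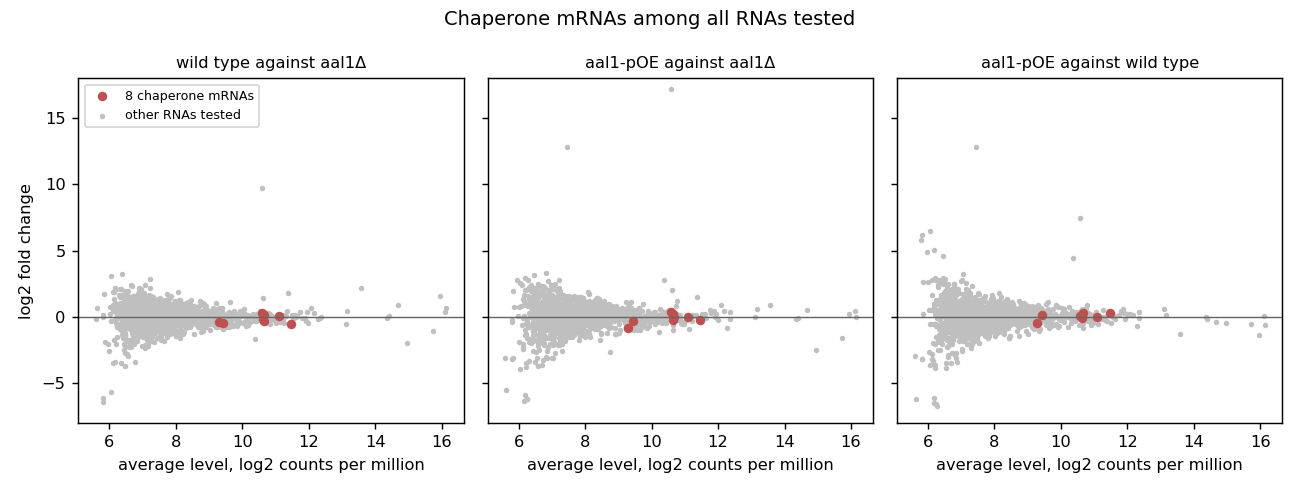
Fitted log2 fold change of every RNA tested against its average level in log2 CPM after TMM scaling, with the 8 chaperone mRNAs in red and the others in grey. The chaperone mRNAs lie near 0 and to the right of most RNAs, where the spread of fold changes is narrower.

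Levels that did not overlap between strains were common in the table. After TMM scaling the libraries of *hsp104*, *ssa2* and *bip1* did not overlap between wild type and *aal1∆* (3 of 8, beside 30.2% of 1329 RNAs), those of *hsp104* and *ssa2* did not between *aal1-pOE* and *aal1∆* (2 of 8, beside 34.2%), and 0 of 8 did not between *aal1-pOE* and wild type (beside 34.2%). In each of these cases the *aal1∆* libraries were the higher ones, but all the cases share the same 2 *aal1∆* libraries. How often *aal1∆* was the higher strain among all RNAs was not counted. By CPM the numbers were 2 (*hsp16*, *ssa2*), 3 (*hsp104*, *ssa2*, *bip1*) and 1 (*ssa2*) of 8, beside 26.2%, 34.6% and 30.5% of RNAs. On that scale *hsp16* was higher in wild type than in *aal1∆*, and the others were higher in *aal1∆*. Between *aal1-pOE* and wild type, *ssa2* was higher in *aal1-pOE*. Replicates of 1 strain differed by more than counting noise: the chi-square of the 8 mRNAs per degree of freedom was 4.60 in *aal1-pOE*, 3.50 in wild type and 5.94 in *aal1∆*, beside 4.08, 4.10 and 4.06 for all nuclear mRNAs. At an equal relative spread this measure grows with the count. The 8 mRNAs had higher counts than most nuclear mRNAs, so the 2 sets of values do not compare their relative spread.

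Together the 8 mRNAs took 1.131% and 1.013% of all counts in *aal1-pOE*, 1.31% and 0.965% in wild-type cells and 1.23% and 1.31% in *aal1∆*. The means were 10724 ± 835 CPM in *aal1-pOE*, 11380 ± 2443 CPM in wild type and 12709 ± 568 CPM in *aal1∆* (SD, n = 2). Both *aal1-pOE* libraries were below both *aal1∆* libraries on this scale, and wild type spanned nearly the whole range. As a share of nuclear mRNA counts, the sum was 2.10% and 2.23% in *aal1-pOE*, 1.998% and 2.28% in wild-type cells and 2.30% and 2.34% in *aal1∆*. With *aal1* and SPNCRNA.401 left out of the totals, the order of *aal1-pOE* and *aal1∆* turned round, with 13240 ± 732 CPM in *aal1-pOE* and 12709 ± 568 CPM in *aal1∆*. *ssa2* was the largest part of the sum in 5 of 6 libraries, between 17.7% and 25.4% of it, and *hsp104* varied most in proportion, between 2.12% and 6.57%.

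**Figure D5:**
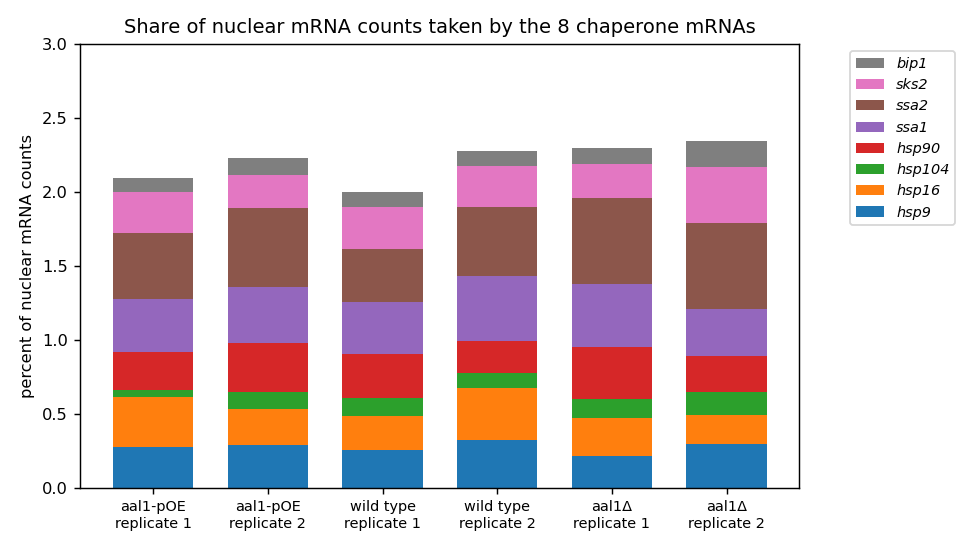
Counts of the 8 chaperone mRNAs as a percent of nuclear mRNA counts, stacked by gene, in the 6 libraries. Bars lie between 1.998% and 2.34%, and the *ssa2* segment is widest in *aal1∆*.

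A wider list of 42 chaperone genes held the J-protein partners of Hsp70, other Hsp70 proteins and exchange factors, Hsp90 partners, the CCT chaperonin of the cytosol, mitochondrial chaperones, the lectin chaperone *cnx1*, small heat-shock and Hsp31-type genes and *hsf1*. Of these, 39 were matched by symbol or synonym to a gene of the table, and 20 had enough counts for the test. Listed genes without a match may still be in the table under another name. Of the 20 tested, 0 were higher and 0 lower in each of the 3 comparisons (edgeR, 0 at an unadjusted p under 0.05, 0 by DESeq2). The mitochondrial Hsp70 *ssc1* was the most abundant, with 131 and 105 counts in *aal1-pOE*, 206 and 117 in wild-type cells and 353 and 84 in *aal1∆*. Its log2 fold change in *aal1-pOE* against *aal1∆* was -0.43 (SE 0.38, edgeR adjusted p = 0.9997). The heat-shock factor gene *hsf1* was counted 20 and 13 times in *aal1-pOE*, 60 and 14 in wild-type cells and 65 and 12 in *aal1∆*, so that replicate 1 held most of its counts in wild type. Its log2 fold change was -0.71 (SE 0.64) in *aal1-pOE* and 0.15 in wild type against *aal1∆*, and -0.85 (SE 0.64) in *aal1-pOE* against wild type. The smallest p in wild type against *aal1∆* was that of *aha1*, which stimulates the ATPase of Hsp90, with 3 and 6 counts in wild type and 28 and 12 in *aal1∆* (log2 fold change -1.97, SE 1.10, edgeR adjusted p = 0.9993). In *aal1-pOE* against *aal1∆* it was that of *ssz1*, a ribosome-bound Hsp70 in budding yeast, with 5 and 7 counts in *aal1-pOE* and 38 and 9 in *aal1∆* (log2 fold change -1.46, SE 0.99, edgeR adjusted p = 0.9997). Subunits of CCT, which folds actin and tubulin, had 7 of 8 genes tested. Their log2 fold changes had medians of 0.57 for wild type and -0.23 for *aal1-pOE* against *aal1∆*, and -0.81 for *aal1-pOE* against wild type, beside 0.00, 0.01 and 0.03 for all RNAs, with at most 23 counts for any of the 8 genes in a library. The Hsp90 partners, with 3 genes tested, had medians of -1.41 and -0.38 in the same 2 comparisons against *aal1∆* and 1.03 in *aal1-pOE* against wild type, opposite in sign to those of CCT except in *aal1-pOE* against *aal1∆*. In *aal1-pOE* against wild type the smallest p was that of the CCT gene *cct3*, with 8 and 2 counts in *aal1-pOE* and 18 and 14 in wild type (log2 fold change -1.57, SE 1.17, edgeR adjusted p = 0.995).

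Profiles over the 6 libraries were compared with the summed chaperone level as centred log2 CPM after TMM scaling, among 1284 other nuclear mRNAs. The 5 nearest were *pfk1*, *tdh1*, *tkt1*, *zym1* and *atd1*. Their root mean square difference was between 0.087 and 0.126 on the log2 scale, beside a median of 0.677. The summed profile was nearly flat, with centred values between -0.19 and 0.12 over the 6 libraries. Every chaperone mRNA lay farther from the sum than these 5 did, between 0.162 (*ssa1*) and 0.518 (*hsp104*). The mRNAs compared were not matched in level, so whether these 5 share a chaperone profile was not tested. *pfk1* and *tdh1* encode the glycolytic enzymes phosphofructokinase and glyceraldehyde-3-phosphate dehydrogenase, *tkt1* a transketolase, *zym1* a metallothionein and *atd1* an aldehyde dehydrogenase. *pfk1* was counted 158 and 111 times in *aal1-pOE*, 184 and 113 in wild-type cells and 316 and 80 in *aal1∆*.

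Stretches of perfect base-pairing with *aal1* (783 nt) were sought in the 8 mRNAs, since the pull-down asks which RNAs *aal1* meets. The longest was in *hsp16*, with 15 nt in its 3′ UTR at chrII:2660172-2660186, and it is printed with the *aal1* stretch it can pair with. A run this long or longer is held by 57 of 5113 nuclear mRNAs (1.11%), where the median is 11 nt. That share is for a single mRNA, whereas *hsp16* was picked as the longest of 8, and pairing in cells was not tested. The site and its partner are simple repeats of A and T, read here as DNA letters.
hsp16 site: aaaataaataaataa
aal1 partner: ttatttatttatttt
In the other 7 mRNAs the longest run was 9 nt (*ssa1*), 10 nt (*hsp90*, *bip1*) or 11 nt (*hsp9*, *hsp104*, *ssa2*, *sks2*), and 55.2% of nuclear mRNAs hold a run of at least 11 nt. No probe sequences were used in this search.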

How the data were processed

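RNA from *aal1* pull-downs (ChIRP-seq) was sequenced by the authors on a MiSeq. The deposited table holds raw counts per gene. Per the methods and the submitters' notes, the authors aligned with HISAT2 2.2.1 in forward-reverse mode and counted with HTSeq 0.12.3 in reverse mode. These modes name opposite strands, so the modes alone do not settle which strand of a gene was counted. At the *aal1* locus, *aal1* had 9540 and 20832 counts in *aal1-pOE* and its antisense RNA SPNCRNA.401 had 630 and 846. In wild-type cells *aal1* had 28 and 147 counts and SPNCRNA.401 had 0 in both libraries. Most counts at this locus thus fell on the strand of *aal1*, that is, on its sense strand. The notes also list edgeR 3.32.1, SAMtools 1.14, deepTools 3.5.1 and FastQC 0.11.2. The authors' genome build was not given in the sources used here. Molecular indices of the kit were clipped, and no collapsing of duplicates is stated, so Poisson intervals (95%) cover counting error only.

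Counts were tested with edgeR 4.0.16 (glmQLFit, glmQLFTest) in R 4.3.3 on all 6 libraries (40653 to 175263 counts each), after TMM and filterByExpr (1329 RNAs), with Benjamini-Hochberg adjustment at 0.05. DESeq2 1.42.0 and other scalings, filters and libraries left out were alternatives. The standard error is the log2 fold change over the root of F. The test was also run on simulated counts as a check of the code, and no value given here rests on that run. Names and sequences came from RefSeq's ASM294v3 (6852 of 7001 identifiers matched).

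The 8 genes and the list of other chaperones were chosen with earlier results of these data known. Genes named beside them are *aal1*, *hsf1*, up to 4 per comparison of smallest p in the list and the 5 nuclear mRNAs of nearest profile. The RNAs called and those that overlap one of the 8 genes on the same strand are named too.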

Additional observations from a re-analysis of the deposited data

How the results depend on the processing

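Under every alternative run, 0 chaperone mRNAs and 0 other chaperone genes passed the threshold in all 3 comparisons, and over the 354 alternative values of the 24 fold changes the adjusted p lay at 0.672 or above. At an unadjusted p under 0.05, 1 of the 8 passed in wild type against *aal1∆* with *aal1*, SPNCRNA.401, rRNA and mitochondrial genes taken out, and 1 in *aal1-pOE* against *aal1∆* without *aal1-pOE* replicate 2. Depth and 2 libraries per strain limit the precision.

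Signs turned for 15 of the 24 fold changes under at least 1 alternative, and the cause was not tested. In *aal1-pOE* against *aal1∆*, *hsp90* was at 0.026 (log2) with RLE size factors and 0.0013 with DESeq2, and *ssa1* at -0.14 with library size only, -0.044 without a filter and -0.0040 with *aal1*, SPNCRNA.401, rRNA and mitochondrial genes taken out. In *aal1-pOE* against wild type, *hsp9*, *hsp16*, *hsp90* and *bip1* were at -0.14, -0.017, -0.0028 and -0.066 with library size only, and *hsp9* at -0.0048 without a filter and -0.016 with DESeq2. Library size only moved the median of all RNAs to -0.14 in *aal1-pOE* against *aal1∆* and to -0.17 in *aal1-pOE* against wild type.

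Leaving out 1 library at a time turned the sign of these fold changes: wild type against *aal1∆* ran between -0.027 and 0.42 for *hsp9*, -0.091 and 0.66 for *hsp16*, -0.60 and 0.19 for *hsp90*, -0.21 and 0.45 for *ssa1* and -0.33 and 0.16 for *sks2*. For *aal1-pOE* against *aal1∆* it ran between -0.33 and 0.44 for *hsp90*, -0.25 and 0.39 for *ssa1* and -0.43 and 0.069 for *sks2*. For *aal1-pOE* against wild type it ran between -0.21 and 0.26 for *hsp9*, -0.28 and 0.49 for *hsp16*, -1.27 and 0.10 for *hsp104*, -0.26 and 0.18 for *ssa1*, -0.28 and 0.075 for *sks2* and -0.029 and 0.28 for *bip1*. Others kept their sign but varied in size, among them *ssa2* (-0.36 to -0.041) and *bip1* (-0.54 to -0.097) in *aal1-pOE* against *aal1∆*, *ssa2* (-0.79 to -0.26) in wild type against *aal1∆*, and *ssa2* (0.053 to 0.60) in *aal1-pOE* against wild type. The median of all RNAs moved to 0.27 in wild type and 0.29 in *aal1-pOE* against *aal1∆* without *aal1∆* replicate 1, and in *aal1-pOE* against wild type to -0.13 without *aal1-pOE* replicate 1, 0.13 without wild-type replicate 1 and 0.12 without wild-type replicate 2.

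The summed chaperone level of *aal1-pOE* over *aal1∆* was 0.844 by CPM, 0.933 as a share of nuclear mRNA, 0.950 after TMM and 1.04 with *aal1* and SPNCRNA.401 out of the total, and over wild type it was 0.942 by CPM and 1.16 with that total.

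Replicate numbers did not pair the samples: the deviations of same-numbered libraries correlated at 0.047 between wild type and *aal1∆*, -0.052 between *aal1-pOE* and *aal1∆* and 0.089 between *aal1-pOE* and wild type. With the replicate number as a block, 0 of the 8 mRNAs passed in each comparison, *hsp90* in *aal1-pOE* against *aal1∆* was at 0.019, and 2, 4 and 3 RNAs were called in place of 2, 5 and 3.

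The number of all RNAs called in wild type against *aal1∆* was 2, and 1 with library size only, with the 2 strains alone or with *aal1*, SPNCRNA.401, rRNA and mitochondrial genes taken out, and between 1 and 6 without 1 library (6 without *aal1∆* replicate 2). In *aal1-pOE* against *aal1∆* it was 5, and 2 by DESeq2, 3 with those RNAs taken out and between 3 and 6 without 1 library. In *aal1-pOE* against wild type it was 3, 2 by DESeq2 and 0 with those RNAs taken out, since the 3 called were *aal1*, SPNCRNA.401 and the rRNA SPRRNA.42.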
